A study of Mus musculus with 2 samples.

Results

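The genes described here are 58 genes of DNA replication and mitosis, found by symbol among the 17245 genes of a table of pancreatic islet RNA, and all 58 were listed. By role they were divided into 30 genes that act from the G1/S transition through DNA synthesis, called the replication set, and 28 genes that act in G2 and mitosis, called the mitosis set. Islets of mice were released with collagenase, hand-picked and cultured in serum-containing RPMI-1640 before total RNA was sequenced, so the RNA comes from all cells of the picked islets after culture. Of the 2 samples, 1 library is labelled KO and stands for mice whose β-cells lack the cytosolic DNA sensor cGAS, and 1 is labelled WT. The driver of the deletion, the deleted exon, the strain, age and sex of the mice and how many mice stand behind a library are details that the sources used here do not give. Because each genotype has 1 library, differences have no replicate check and the genotypes could not be tested against each other. Values are FPKM (fragments per kilobase per 1000000), which are scaled by the gene length the authors used; those lengths are not given in these sources, so a comparison of levels between genes rests on them.

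Cgas itself had 0.521 FPKM in the library labelled KO, against 0.205 FPKM in WT, on at least 31 reads (labelled KO) and 16 reads (WT). The targeted RNA was thus not lower where the label says knockout. The deletion is one of β-cells, while these values count Cgas RNA of all islet cells, so its level in β-cells is not known. The library with the KO label is therefore called the library labelled KO, and "higher" or "lower" compares the libraries by their labels. Genes that mark β-cells were present as the tissue label requires, with all 8 β-cell markers above 1 FPKM in both libraries, although 1 of them, Ins1, was called higher in the library labelled KO and 2, Nkx6-1 and Slc2a2, lower by the 2-fold limit used for the members.

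A cell that divides passes a fixed order of steps. In late G1, cyclin E with the kinase Cdk2 helps to release E2F transcription factors from the retinoblastoma protein family, and E2F switches on the genes that license origins, unwind DNA and supply nucleotides. In G2, the transcription factors B-Myb and FoxM1 switch on mitotic cyclins, kinases, kinetochore proteins and spindle motors. In resting cells both groups are kept off by the DREAM complex, which binds E2F sites and an element called CHR. Adult mouse β-cells divide rarely, and their replication is usually scored by staining for Ki-67, the product of Mki67. The title of the study names β-cell proliferation as its subject, so the levels of these genes bear on how much cycling the RNA of each library can show.

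The promoters of the members carried the letters of these elements in different shares, and 5 are shown because they hold the motifs that separate the 2 sets. The sequences are from RefSeq on GRCm38.p6, are the 150 bases just before the annotated start, and run 5′ to 3′ on the strand of the gene. Capitals mark TTTGAA (the CHR element), CCAAT (the box bound by NF-Y) and the E2F-type words TTTCCCGC and TTTGGCGC, each on either strand. The lines are, in order, Mki67 at chr7:135716380-135716529 on the minus strand, the mitotic kinase gene Cdk1 at chr10:69352913-69353062 on the minus strand, the anaphase activator gene Cdc20 at chr4:118437344-118437493 on the minus strand, and the helicase genes Mcm5 at chr8:75109359-75109508 on the plus strand and Mcm6 at chr1:128359706-128359855 on the minus strand.
Mki67: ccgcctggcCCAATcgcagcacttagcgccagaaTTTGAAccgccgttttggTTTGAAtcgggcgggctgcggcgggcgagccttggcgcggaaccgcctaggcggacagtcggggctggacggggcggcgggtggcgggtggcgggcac
Cdk1: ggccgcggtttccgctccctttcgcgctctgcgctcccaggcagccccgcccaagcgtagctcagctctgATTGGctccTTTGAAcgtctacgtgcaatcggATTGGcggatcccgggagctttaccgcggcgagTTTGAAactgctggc
Cdc20: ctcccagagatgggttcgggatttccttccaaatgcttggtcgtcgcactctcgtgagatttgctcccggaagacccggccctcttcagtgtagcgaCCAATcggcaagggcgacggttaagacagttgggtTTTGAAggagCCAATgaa
Mcm5: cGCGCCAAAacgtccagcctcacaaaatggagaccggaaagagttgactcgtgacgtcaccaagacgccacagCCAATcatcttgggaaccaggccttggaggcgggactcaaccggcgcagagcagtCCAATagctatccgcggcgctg
Mcm6: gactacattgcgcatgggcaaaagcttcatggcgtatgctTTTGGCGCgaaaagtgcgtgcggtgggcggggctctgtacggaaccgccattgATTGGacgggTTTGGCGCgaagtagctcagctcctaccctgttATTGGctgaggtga
The first 3 promoters hold CHR and CCAAT letters and no E2F-type word, and the Mcm promoters hold E2F-type words and CCAAT letters and no CHR word.

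Over a window from 250 bases before to 50 after the start, 48 of 58 members had a promoter in the table, some with more than 1 start. The members Aurkb, Ccna2, Ccne2, Foxm1, Gmnn, Kif20a, Mcm4, Rfc2, Stmn1 and Tpx2 were not matched. An E2F-type word was found for 11 of 26 replication genes (42.3%), for 0 of 22 mitosis genes and for 1.80% of 27025 genes in the table. The CHR word was found for 14 of 22 mitosis genes (63.6%), for 5 of 26 replication genes (19.2%) and for 20.2% of all genes. All 14 of those mitosis genes also held CCAAT letters, and 8.97% of all genes held both. CCAAT letters, with or without the CHR word, were found for 18 of 22 mitosis genes (81.8%), 16 of 26 replication genes (61.5%) and 41.1% of all genes. Among 126 motif matches in the windows of the members, none overlapped a match of another motif. These are matches of letters, not measured binding.

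**Figure D1:**
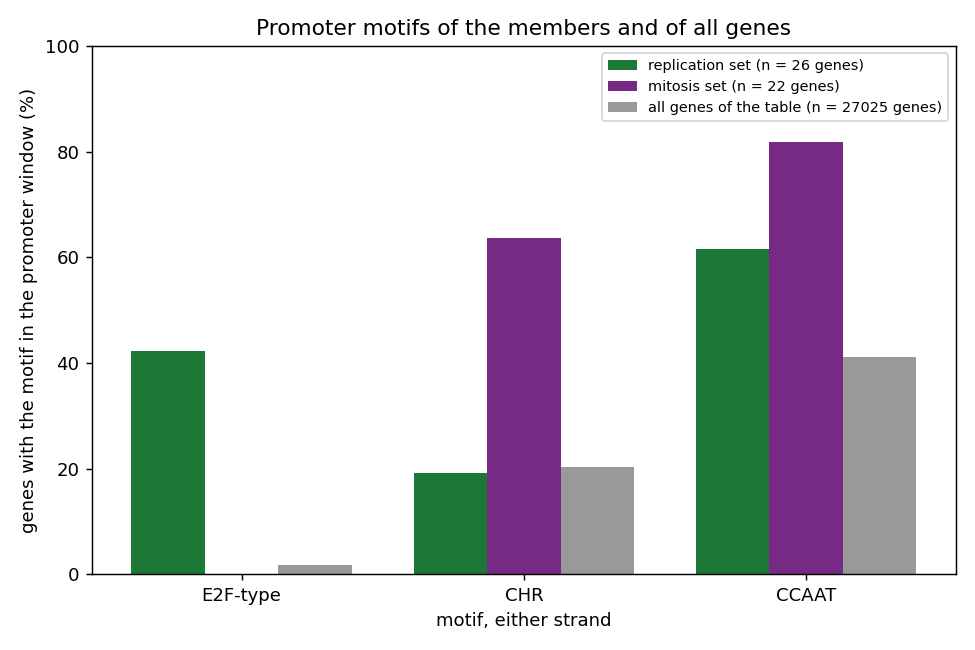
Share of genes (vertical axis, percent) with an E2F-type word, a CHR word or CCAAT letters on either strand of the promoter window, for the replication set (26 genes), the mitosis set (22 genes) and all 27025 genes of the RefSeq table. E2F-type words are seen in 42.3% of the replication set and in none of the mitosis set, and CHR words in 63.6% of the mitosis set.

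Most members were present at low levels in both libraries, and the mitosis set lay lowest. All 58 members were above 0 in both libraries. In the library labelled KO 31 members reached 1 FPKM, and in WT 26 did. In the replication set 19 of 30 genes reached 1 FPKM in the library labelled KO and 21 of 30 in WT, with medians of 2.06 FPKM in labelled-KO islets and 1.56 FPKM in WT islets. In the mitosis set 12 of 28 genes reached 1 FPKM in the library labelled KO and 5 of 28 in WT, with medians of 0.851 FPKM in labelled-KO islets and 0.527 FPKM in WT islets. Of the members, 9 were at or above 5 FPKM in either library, namely Rfc2, Stmn1, Pcna, Orc6, Cks1b, Pttg1, Mcm7, E2f1 and Rrm1. In RNA of whole islets, fewer cells of a type and less RNA per cell cannot be told apart, so neither the cell type that cycled nor the share of cycling cells is given by these values.

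**Figure D2:**
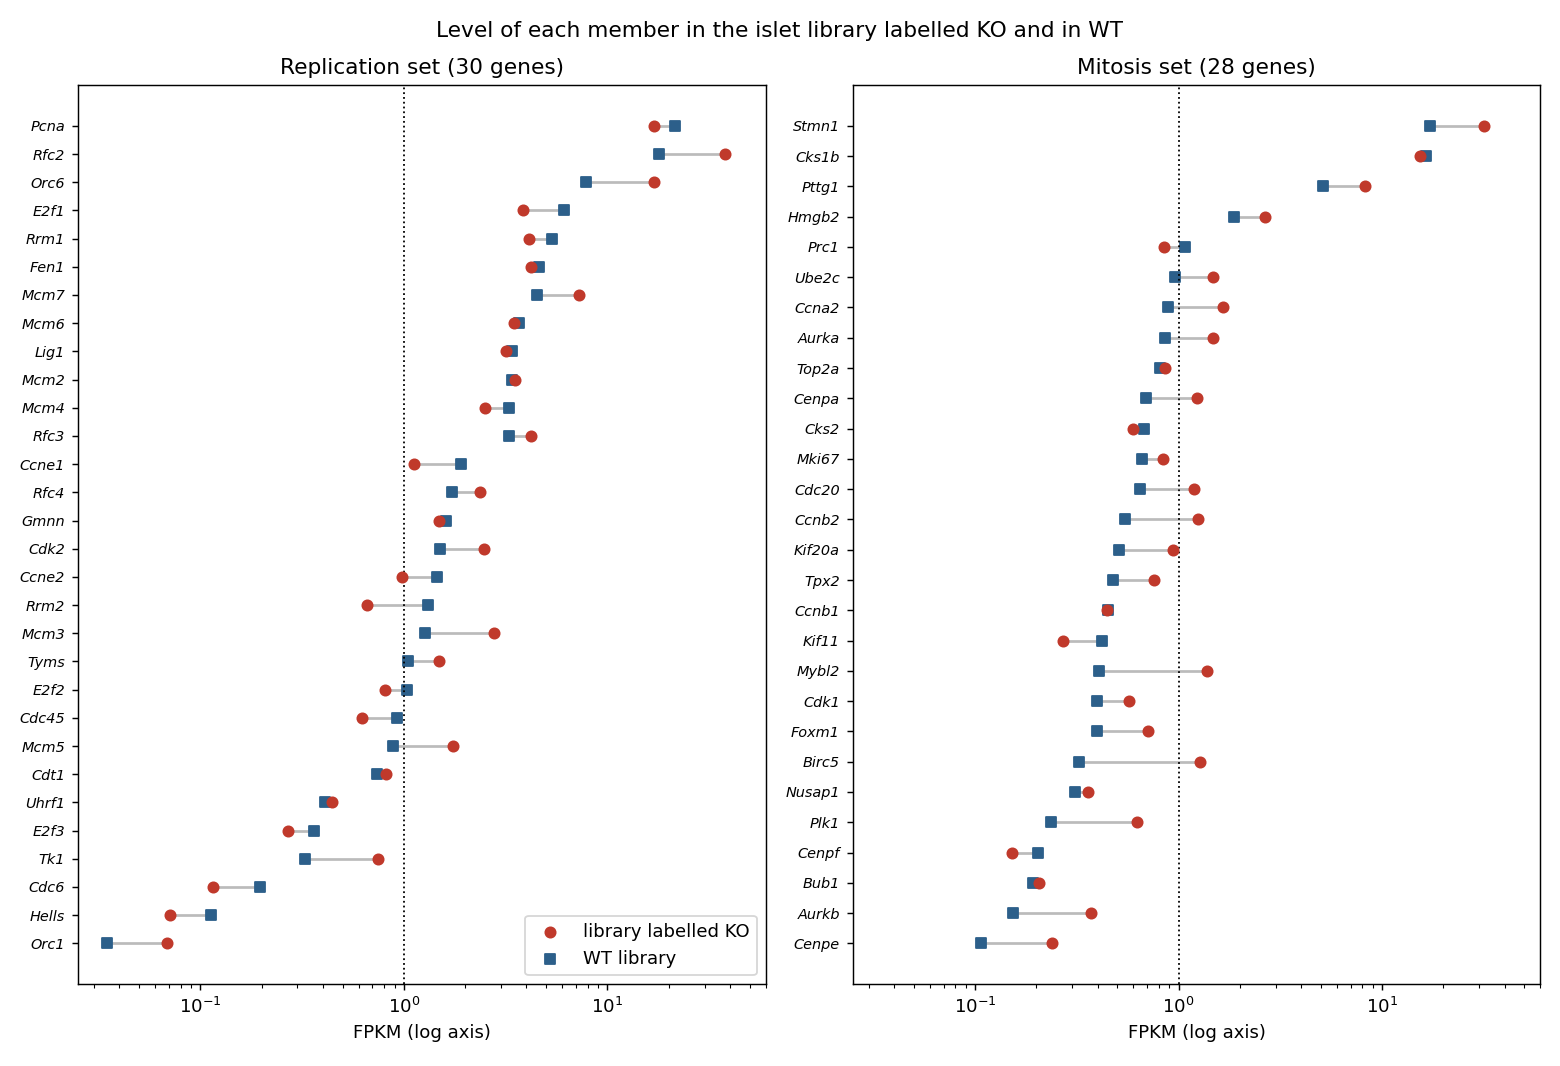
FPKM of each member (log axis) in the library labelled KO (circles) and in WT (squares), in the replication set (left) and the mitosis set (right), ordered by the WT value; each point is 1 library and the dotted line is 1 FPKM. The replication set spans 0.0347 to 37.8 FPKM, and most of the mitosis set lies below 2 FPKM in both libraries.

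The depth behind these values is small for the lowest genes. Whole reads recovered from the FPKM values gave library totals of 14537660 reads in the library labelled KO and 19097001 reads in WT, at which 1 FPKM over 1 kilobase is worth 14.5 reads in the library labelled KO and 19.1 reads in WT. The read numbers given here are the smallest that fit a gene's values in both libraries, so the true number is that or a whole multiple. For 42 of 58 members the length that goes with these reads was within 1.5 times of the longest GENCODE transcript. For 10, Birc5, Foxm1, Hmgb2, Lig1, Nusap1, Plk1, Rfc2, Rfc4, Stmn1 and Ube2c, it was shorter. Their true reads may thus be multiples and their intervals narrower than given. Of these 10 intervals 8 held 1, and whether they would with more reads is not known. For 6, E2f3, Gmnn, Hells, Tyms, Cdc45 and Pttg1, it was longer, which would set their FPKM low beside other genes. By these numbers 25 of 58 members, 18 of them in the mitosis set, had under 50 reads in both libraries. Intervals are exact Clopper-Pearson 95% intervals of the FPKM ratio, labelled KO over WT, and cover counting error only.

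A gene at 1 FPKM or more in either library was counted as expressed, and a gene was called at a 2-fold difference on the log2(FPKM + 1) scale, which understates the change of low genes. Of the 35 expressed members, 2 were called higher in the library labelled KO, Rfc2 and Orc6, and none was called lower. Of all 12428 expressed genes, 6.98% were called higher and 3.88% lower, 10.9% in all. The share of members called was thus at or under the background. No p-value was computed and no other tool was run, since 1 library per genotype allows no test. Both calls ended when the libraries were scaled to equal sums or by the median ratio.

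Without the floor and the 2-fold limit, the 95% interval of the ratio lay above 1 for 17 of 58 members (29.3%) and below 1 for 8 (13.8%). Over all genes with recovered reads these shares were 34.7% and 25.7%, so intervals without 1 were not more frequent among the members than among all genes. The 17 higher members were divided between the replication set, with 8, and the mitosis set, with 9. All 8 lower members were in the replication set. These counts use the smallest fitting reads. For 8 of the 10 members with a short fitted length the interval held 1, and more reads could change that.

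**Figure D3:**
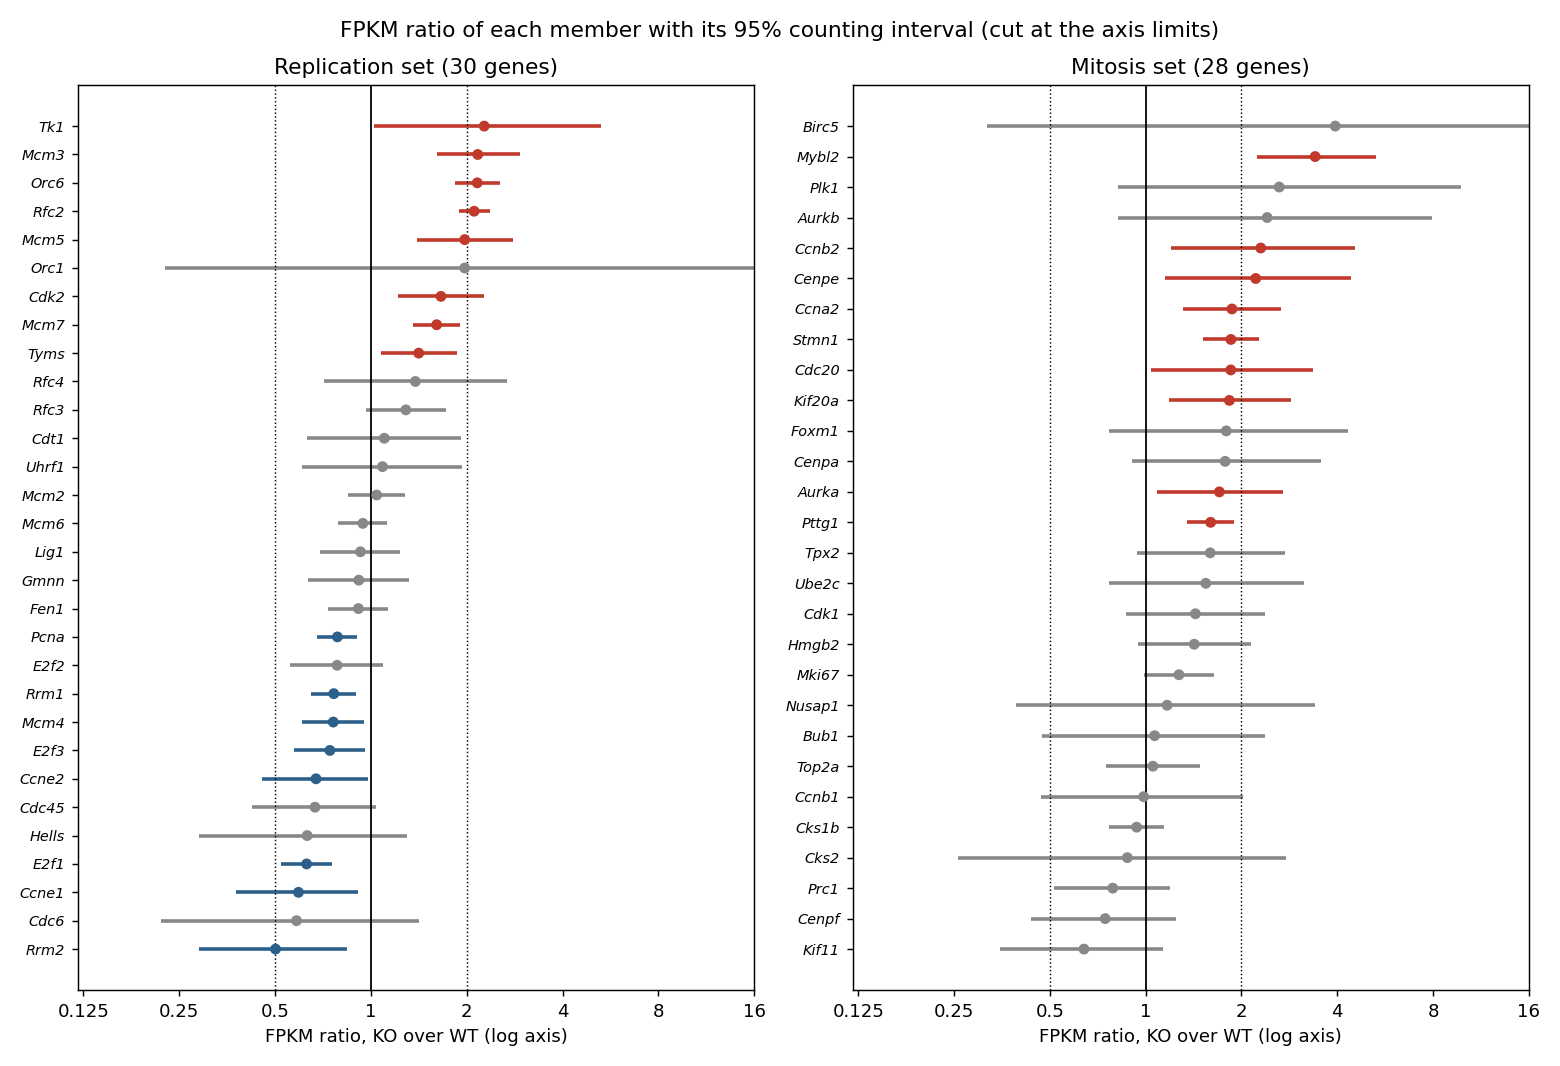
FPKM ratio of each member, labelled KO over WT (log axis), with its exact 95% counting interval, in the replication set (left) and the mitosis set (right). Intervals above 1 are red, below 1 blue and those that hold 1 grey; lines that reach the edge go on beyond it, and dotted lines mark ratios of 0.5 and 2. The replication set has 8 red and 8 blue intervals, and the mitosis set has 9 red and no blue.

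Of the 6 G1/S regulators, 1 had a higher FPKM in the library labelled KO, where 58.2% of all listed genes did, and 5 had a lower one. The interval lay below 1 for 4 of the 5 and held 1 for E2f2 (0.557 to 1.09). E2f1, the E2F factor that activates replication genes, had 3.86 FPKM in the library labelled KO, against 6.15 FPKM in WT, 1.59-fold lower (1.33 to 1.92). It was the highest of the E2F members, with E2f2 at 0.811 FPKM in labelled-KO islets and 1.04 FPKM in WT islets and E2f3 at 0.270 FPKM in labelled-KO islets and 0.364 FPKM in WT islets. The length that fits E2f3 was 25205 bases, far over its GENCODE transcript of 5097 bases, so its FPKM may be set low by the length used.

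Ccne1, which encodes cyclin E1, had 1.13 FPKM in the library labelled KO, against 1.90 FPKM in WT, 1.69-fold lower (1.10 to 2.65). Ccne2, for cyclin E2, had 0.975 FPKM in labelled-KO islets and 1.45 FPKM in WT islets, 1.49-fold lower (1.02 to 2.19). Their partner kinase Cdk2 went the other way, at 2.49 FPKM in the library labelled KO, against 1.498 FPKM in WT, a ratio of 1.66 (1.22 to 2.27). Cdk2 shares exon bases with Pmel on the opposite strand, and Ccne2 with Ints8, and the sources used here do not say whether strand was used in counting; in all, 16 of 58 members share exon bases with a coding gene on the opposite strand. With a fitted trend on GC content and length subtracted, the log2 ratio of Ccne2 was 0.03 and that of E2f1 was -1.01. That of E2f2 was then -0.41, against -0.17 before.

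Genes that license origins ranged from near absent to abundant. Orc6, a subunit of the origin recognition complex, had 17.0 FPKM in the library labelled KO, against 7.88 FPKM in WT, a ratio of 2.16 (1.84 to 2.54). Orc1, the subunit whose protein level follows the cell cycle in human cells, had 0.0685 FPKM in labelled-KO islets and 0.0347 FPKM in WT islets, on at least 3 reads (labelled KO) and 2 reads (WT), too few for a direction. Orc6 shares exon bases with Vps35 on the opposite strand, so its level is less certain.

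Cdc6 and Cdt1 load the Mcm helicase onto origins, and geminin, the product of Gmnn, holds Cdt1 back. Cdc6 had 0.115 FPKM in the library labelled KO, against 0.197 FPKM in WT, on at least 8 reads (labelled KO) and 18 reads (WT). Cdt1 had 0.816 FPKM in labelled-KO islets and 0.741 FPKM in WT islets and Gmnn had 1.48 FPKM in labelled-KO islets and 1.62 FPKM in WT islets. The intervals of these 3 ratios all held 1. The log2 ratio of Gmnn was -0.40 with the GC and length trend subtracted, against -0.08 before. Cdc45, which joins the helicase when it fires, had 0.619 FPKM in labelled-KO islets and 0.928 FPKM in WT islets with an interval of 0.422 to 1.04.

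The 6 subunits of the Mcm2 to Mcm7 ring, which act in equal numbers as the replicative helicase, did not differ alike. Mcm3 had 2.77 FPKM in the library labelled KO, against 1.28 FPKM in WT, a ratio of 2.17 (1.61 to 2.93). Mcm5 had 1.75 FPKM in labelled-KO islets and 0.889 FPKM in WT islets, a ratio of 1.97 (1.40 to 2.80), and Mcm7 had 7.28 FPKM in labelled-KO islets and 4.53 FPKM in WT islets, a ratio of 1.61 (1.36 to 1.91). These 3 were higher in the library labelled KO beyond counting error.

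Mcm2 had 3.53 FPKM in the library labelled KO, against 3.39 FPKM in WT, and Mcm6 had 3.48 FPKM in labelled-KO islets and 3.69 FPKM in WT islets, with ratios of 1.04 (0.849 to 1.28) and 0.943 (0.791 to 1.12). Mcm4 had 2.51 FPKM in labelled-KO islets and 3.30 FPKM in WT islets, 1.31-fold lower (1.05 to 1.64). The intervals of Mcm3, Mcm5 and Mcm7 therefore did not meet those of Mcm4, Mcm2 or Mcm6. Mcm2 was lower in the library labelled KO under the 3 other scalings, with log2 ratios from -0.07 to -0.02, against 0.05 as deposited. With the GC and length trend subtracted the log2 ratio of Mcm4 was -0.06, against -0.29 before. Those of Mcm2 and Mcm6 were then -0.23 and 0.14. All 6 reached 1 FPKM in the library labelled KO, and all but Mcm5 did in WT. Mcm7 shares exon bases with Ap4m1 and Cops6 on the opposite strand and hosts Mir25 and Mir93.

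Genes of the replication fork had the highest sum of the roles in the replication set, and all 6 were above 1 FPKM in both libraries. Rfc2, a subunit of the clamp loader, had 37.8 FPKM in the library labelled KO, against 17.9 FPKM in WT, a ratio of 2.11 (1.89 to 2.36), which in the library labelled KO was the highest level of all members. The other clamp loader subunits in the list were far lower, Rfc3 at 4.24 FPKM in labelled-KO islets and 3.29 FPKM in WT islets and Rfc4 at 2.38 FPKM in labelled-KO islets and 1.72 FPKM in WT islets, with intervals of 0.966 to 1.72 and 0.712 to 2.68. Rfc2 shares exon bases with Lat2 on the opposite strand.

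Pcna, the sliding clamp that is also used in DNA repair, had 16.9 FPKM in the library labelled KO, against 21.6 FPKM in WT, 1.27-fold lower (1.11 to 1.47). It was thus abundant and lower in the library labelled KO, while the clamp loader gene Rfc2 was abundant and higher. Fen1, the flap nuclease, had 4.20 FPKM in labelled-KO islets and 4.60 FPKM in WT islets, and Lig1, the ligase that joins Okazaki fragments, had 3.16 FPKM in labelled-KO islets and 3.41 FPKM in WT islets, both with intervals that held 1. The log2 ratio of Fen1 was -0.38 with the GC and length trend subtracted, against -0.11 before.

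Nucleotide supply was split between the libraries. Ribonucleotide reductase has a large subunit, Rrm1, and a small subunit, Rrm2, whose RNA is made in S phase. Rrm2 had 0.663 FPKM in the library labelled KO, against 1.32 FPKM in WT, 1.99-fold lower (1.19 to 3.47), and Rrm1 had 4.10 FPKM in labelled-KO islets and 5.36 FPKM in WT islets, 1.31-fold lower (1.11 to 1.54). With the GC and length trend subtracted the log2 ratio of Rrm1 was -0.03, against -0.32 before, and that of Rrm2 was -0.39, against -0.48. Rrm1 stood at 6.18 times the level of Rrm2 in the library labelled KO and at 4.06 times in WT.

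Genes of thymidylate supply went the other way. Tyms, thymidylate synthase, had 1.48 FPKM in the library labelled KO, against 1.05 FPKM in WT, a ratio of 1.41 (1.07 to 1.86). Tk1, the S-phase thymidine kinase, had 0.745 FPKM in labelled-KO islets and 0.328 FPKM in WT islets, a ratio of 2.27 (1.03 to 5.28) on at least 19 reads (labelled KO) and 11 reads (WT), and shared exon bases with Afmid on the opposite strand. Uhrf1, which recruits the maintenance methyltransferase to new DNA, and the remodeller Hells were under 0.5 FPKM in both libraries, with intervals that held 1. The fitted length of Hells, 11650 bases, was 1.99 times its transcript, so its FPKM may be set low.

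In the mitosis set, 22 of 28 genes (78.6%) had a higher FPKM in the library labelled KO, where 58.2% of all listed genes did, and 6 a lower one. Under the other scalings of the libraries 20 or 21 were higher, beside 65.5% to 67.6% of all genes with a mean of 0.1 to 2 FPKM. Mybl2, the gene of B-Myb, had 1.38 FPKM in the library labelled KO, against 0.406 FPKM in WT, a ratio of 3.41 (2.24 to 5.30). By the smallest fitting reads, this was the widest ratio among members with an interval above 1. Foxm1, the other transcription factor of G2, had 0.709 FPKM in labelled-KO islets and 0.396 FPKM in WT islets, on at least 15 reads (labelled KO) and 11 reads (WT), with an interval of 0.769 to 4.31. Foxm1 shares exon bases with the coding genes Tex52 and Gm44596 on the same strand.

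Among cyclins, the A-type and one B-type cyclin were higher and the other B-type cyclin was not. Ccna2, cyclin A2, had 1.65 FPKM in the library labelled KO, against 0.884 FPKM in WT, a ratio of 1.87 (1.31 to 2.67). Ccnb2, cyclin B2, had 1.25 FPKM in labelled-KO islets and 0.544 FPKM in WT islets, a ratio of 2.30 (1.20 to 4.55). Ccnb1, cyclin B1, had 0.446 FPKM in labelled-KO islets and 0.452 FPKM in WT islets with an interval of 0.469 to 2.02, so a difference of up to 2-fold was not detectable at this depth. Ccna2 shares exon bases with Exosc9 on the opposite strand.

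The mitotic kinases were low in both libraries. Cdk1, the kinase that cyclins A and B activate, had 0.569 FPKM in the library labelled KO, against 0.397 FPKM in WT, with an interval of 0.868 to 2.37. Aurka, the spindle pole kinase, had 1.47 FPKM in labelled-KO islets and 0.861 FPKM in WT islets, a ratio of 1.70 (1.09 to 2.69). Aurkb, the centromere kinase, had 0.371 FPKM in labelled-KO islets and 0.154 FPKM in WT islets, Plk1, polo-like kinase, had 0.621 FPKM in labelled-KO islets and 0.237 FPKM in WT islets, and Bub1, of the spindle checkpoint, had 0.206 FPKM in labelled-KO islets and 0.193 FPKM in WT islets, all on at most 16 recovered reads in a library and with intervals that held 1.

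The genes of the Cks proteins, small subunits that bind the cyclin-dependent kinases, had unlike levels, and the intervals of both ratios held 1. Cks1b had 15.4 FPKM in the library labelled KO, against 16.4 FPKM in WT, a ratio of 0.937 (0.764 to 1.15). Its log2 ratio was -0.50 with the GC and length trend subtracted, against -0.09 before. Cks2 had 0.595 FPKM in labelled-KO islets and 0.679 FPKM in WT islets on at least 6 reads (labelled KO) and 9 reads (WT). Cks1b stood at 25.8 times the level of Cks2 in the library labelled KO and 24.1 times in WT. Cks1b, whose product also serves the ubiquitin ligase that degrades p27, held 2 CHR words and 4 CCAAT matches in its promoter window, so this abundant gene carried the letters that the low mitotic genes carried.

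The genes of chromosomes and kinetochores include the usual markers of proliferation. Mki67 had 0.839 FPKM in the library labelled KO, against 0.660 FPKM in WT, a ratio of 1.27 (0.985 to 1.64), on at least 123 reads (labelled KO) and 127 reads (WT). Top2a, the topoisomerase that untangles sister chromatids, had 0.854 FPKM in labelled-KO islets and 0.810 FPKM in WT islets, a ratio of 1.05 (0.749 to 1.48). No difference was detectable for either at this depth. Their upper bounds, 1.64-fold and 1.48-fold, cover counting error only and set no limit on a difference between the genotypes. In each library about as many genes lay below Mki67, 27.5% of all listed genes in the library labelled KO and 28.3% in WT.

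Cenpe, a kinetochore motor, had 0.238 FPKM in the library labelled KO, against 0.107 FPKM in WT, a ratio of 2.22 (1.15 to 4.40), whereas Cenpf, a kinetochore scaffold, had 0.151 FPKM in labelled-KO islets and 0.203 FPKM in WT islets with an interval of 0.438 to 1.25. Cenpa, the centromeric histone, had 1.23 FPKM in labelled-KO islets and 0.692 FPKM in WT islets, and Hmgb2, an abundant chromatin protein of dividing cells, at 2.65 FPKM in labelled-KO islets and 1.86 FPKM in WT islets, both with intervals that held 1. Birc5, survivin of the chromosomal passenger complex, had the widest ratio of all members, at 1.27 FPKM in labelled-KO islets and 0.323 FPKM in WT islets. Its values fit as few as 3 reads (labelled KO) and 1 read (WT) over 162 bases, against a GENCODE transcript of 3334 bases. At these reads its interval was 0.316 to 207. The true reads may be multiples with a narrower interval, so whether it would hold 1 is not known. Birc5 lies 23.2 kilobases from Tk1 on chromosome 11.

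Spindle genes were led by Stmn1. Stmn1, stathmin, which destabilises microtubules and is also abundant in neurons and neuroendocrine cells, had 31.7 FPKM in the library labelled KO, against 17.1 FPKM in WT, a ratio of 1.85 (1.52 to 2.26). With the GC and length trend subtracted its log2 ratio was 0.42, against 0.85 before. Stmn1 stood at 37.7 times the level of Mki67 in the library labelled KO and 25.9 times in WT.

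The motors and bundlers of the mitotic spindle were under 1.1 FPKM in both libraries. Kif20a, a motor of the central spindle, had 0.934 FPKM in the library labelled KO, against 0.510 FPKM in WT, a ratio of 1.83 (1.19 to 2.86), and shares exon bases with Cdc23 on the opposite strand. Kif11, the motor that separates the poles, had 0.270 FPKM in labelled-KO islets and 0.422 FPKM in WT islets, and Prc1, which bundles midzone microtubules, had 0.848 FPKM in labelled-KO islets and 1.08 FPKM in WT islets. Both were lower in FPKM with intervals that held 1. The intervals also held 1 for the spindle assembly genes Tpx2, at 0.761 FPKM in labelled-KO islets and 0.477 FPKM in WT islets, and Nusap1, at 0.361 FPKM in labelled-KO islets and 0.309 FPKM in WT islets.

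The 3 genes of mitotic exit were all higher in FPKM. Pttg1, securin, which holds separase until anaphase, had 8.23 FPKM in the library labelled KO, against 5.14 FPKM in WT, a ratio of 1.60 (1.35 to 1.90). Cdc20, which activates the anaphase-promoting complex, had 1.20 FPKM in labelled-KO islets and 0.646 FPKM in WT islets, a ratio of 1.85 (1.04 to 3.36), and shares exon bases with Elovl1 on the opposite strand. Ube2c, the ubiquitin-conjugating enzyme of that complex, had 1.48 FPKM in labelled-KO islets and 0.956 FPKM in WT islets with an interval of 0.769 to 3.14. With that trend subtracted the log2 ratios of Cdc20 and Ube2c were -0.04 and -0.05.

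The direction of the mitosis set has to be read against the low genes as a class, most of which were higher in the library labelled KO. Of 4624 listed genes with a mean of 0.1 to 2 FPKM, 70.4% had a higher FPKM in the library labelled KO, against 58.2% of all listed genes. Of the 24 mitosis genes in that range 19 did (79.2%), and of the 14 replication genes 6 did (42.9%). The median log2 FPKM ratio was 0.72 for the 24 mitosis genes, -0.24 for the 14 replication genes and 0.50 for all genes of that level. The interval lay above 1 for 7 of the 24 mitosis genes (29.2%), against 33.3% of all genes of that level, and below 1 for none, against 10.2%. For the 14 replication genes it lay above 1 for 4 (28.6%) and below 1 for 4 (28.6%). Set beside all genes of that level, at 33.3% and 10.2%, the share below 1 was larger. All of these shares use the smallest fitting reads. The difference between the sets was not tested.

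**Figure D4:**
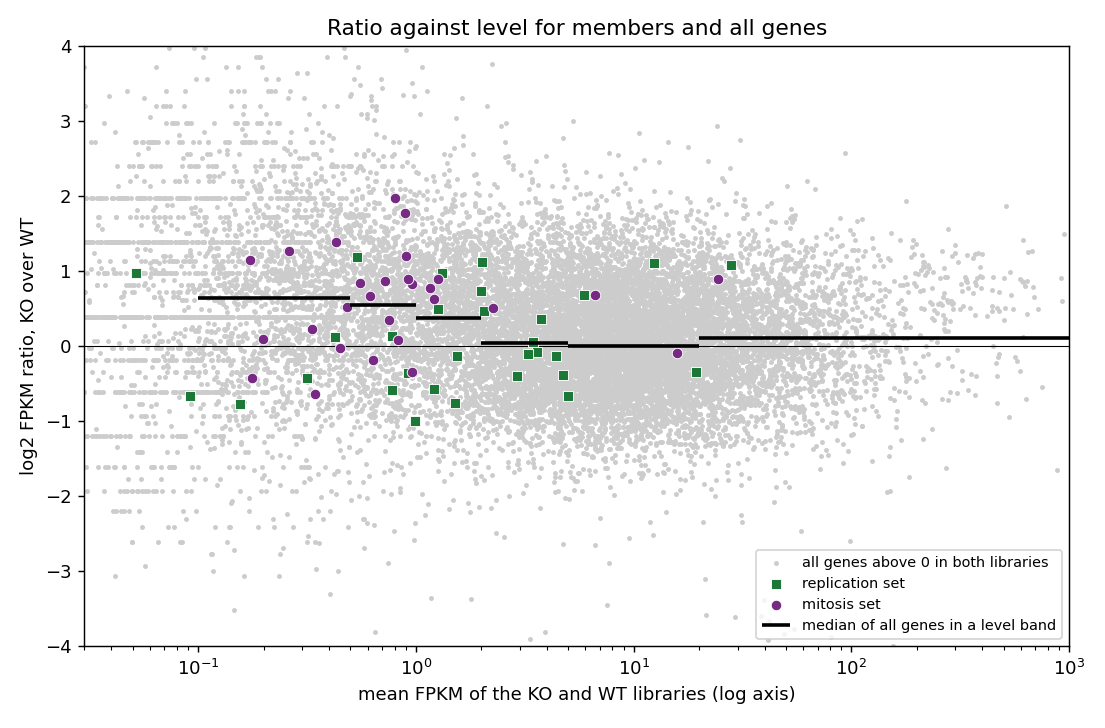
Log2 FPKM ratio, labelled KO over WT, against the mean FPKM of both libraries (log axis) for all genes above 0 in both (grey), the replication set (squares) and the mitosis set (circles); black bars are the median ratio of all genes within a band of level, and genes outside the axis limits are not drawn. The black bar is at 0.63 for genes of 0.1 to 0.5 FPKM and at 0.05 for genes of 2 to 5 FPKM, and most circles lie around the bars on the left.

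Markers of cells other than β-cells also differed between the libraries. All 10 endothelial markers were higher in FPKM in the library labelled KO, with sums of 741 FPKM in labelled-KO islets and 328 FPKM in WT islets. All 10 macrophage markers were, with sums of 345 FPKM in labelled-KO islets and 148 FPKM in WT islets, and all 10 markers of fibroblasts and pericytes, with sums of 210 FPKM in labelled-KO islets and 110 FPKM in WT islets. None of the 10 acinar markers was, with sums of 99.3 FPKM in labelled-KO islets and 1915 FPKM in WT islets. Of the 8 β-cell markers 3 were higher in FPKM and 5 lower (Ins2, Iapp, Nkx6-1, Pdx1 and Slc2a2), with a median log2 ratio of -0.31; their sum, 436639 FPKM in labelled-KO islets and 394881 FPKM in WT islets, was almost all Ins1 and Ins2. The sums were 27820 FPKM in labelled-KO islets and 28149 FPKM in WT islets for α-cell markers, 12581 FPKM in labelled-KO islets and 8513 FPKM in WT islets for δ- and PP-cell markers, 176 FPKM in labelled-KO islets and 152 FPKM in WT islets for ductal markers and 175 FPKM in labelled-KO islets and 103 FPKM in WT islets for erythroid markers. No marker of any list was at 0 in either library. Their part in the differences of the replication and mitosis genes was not tested.

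The mitosis set as a whole was a small part of the islet RNA. Its 28 genes summed to 77.6 FPKM in the library labelled KO, against 52.9 FPKM in WT, but Stmn1, Cks1b and Pttg1 made up most of that. The other 25 genes summed to 22.4 FPKM in the library labelled KO, against 14.3 FPKM in WT, or 29.6 per 1000000 of all FPKM labelled KO and 20.9 in WT. The sum of these 25 genes was thus less than that of the 10 macrophage markers in both libraries, and above that of the 10 lymphocyte markers, 5.02 FPKM in labelled-KO islets and 8.57 FPKM in WT islets. The 30 replication genes summed to 127 FPKM in the library labelled KO, against 102 FPKM in WT, led by Rfc2, Pcna and Orc6.

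**Figure D5:**
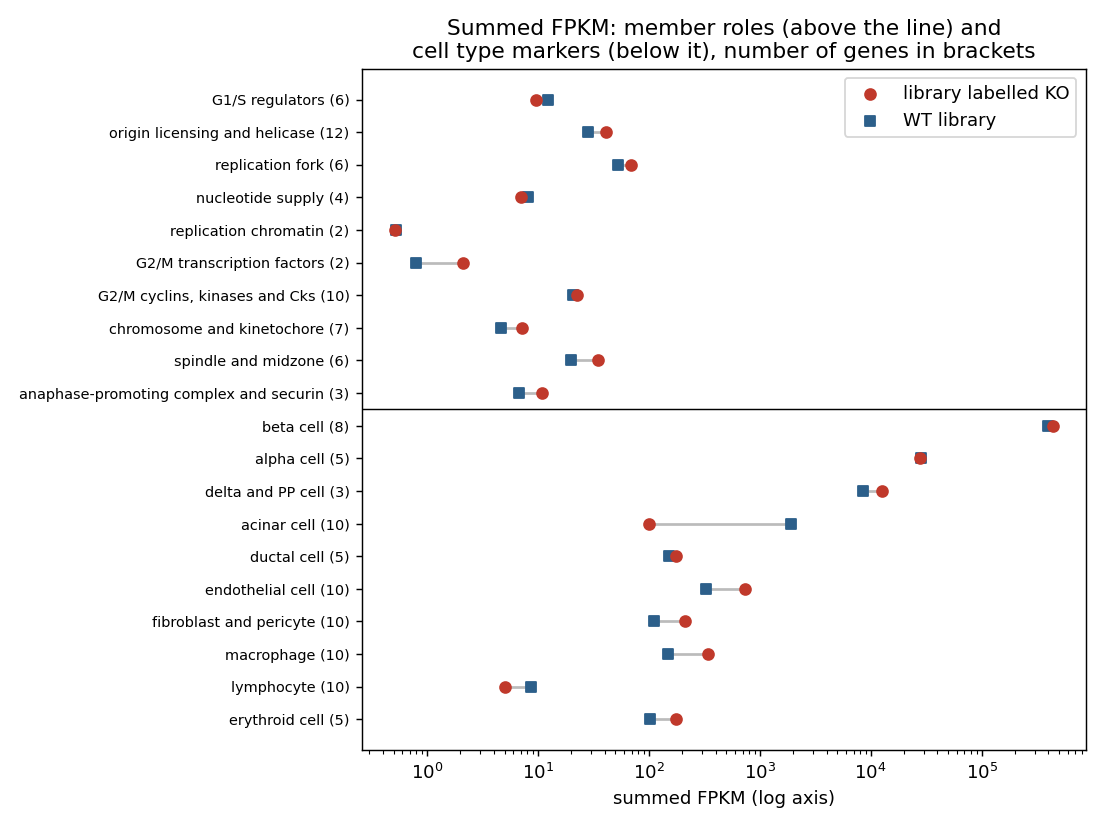
Summed FPKM (log axis) of the genes of each role (above the line) and of each cell type marker list (below it) in the library labelled KO (circles) and in WT (squares), with the number of genes in brackets. The sums of all roles lie between 0.515 and 68.7 FPKM, below those of the endothelial, macrophage and stromal markers, which lie between 110 and 741 FPKM.

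Other genes of the same pathways were taken in 4 lists of 144 genes, to be read against the 6.98% of all expressed genes called higher and the 3.88% called lower. Of 49 further replication genes 37 were expressed, of which 1 was called higher, Pold4, a small subunit of DNA polymerase δ, at 37.9 FPKM in the library labelled KO, against 17.5 FPKM in WT, and none lower. Pold4 shares exon bases with another coding gene on the same strand, so its level is less certain. The most abundant others were Top1 at 13.9 FPKM in labelled-KO islets and 25.998 FPKM in WT islets, Rpa1, of the single-strand binding complex, at 17.4 FPKM in labelled-KO islets and 26.3 FPKM in WT islets, Pole3 at 16.5 FPKM in labelled-KO islets and 15.1 FPKM in WT islets and Pold2 at 12.8 FPKM in labelled-KO islets and 16.1 FPKM in WT islets. Top1 and Rpa1 were thus lower by 1.88-fold (1.72 to 2.04) and 1.51-fold (1.39 to 1.64), while 32 of the 49 genes were higher in FPKM (65.3%) and the median log2 ratio of the expressed genes of this list was 0.11, against 0.08 over all expressed genes.

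Of 63 further mitosis genes 17 were expressed, with 1 called higher and 1 called lower. Of the 63, 37 had a higher FPKM in the library labelled KO (58.7%), against 58.2% of all listed genes. As 46 of the 63 were under 1 FPKM in both libraries, the low genes are the nearer background. Of genes with a mean of 0.1 to 2 FPKM, 70.4% were higher. The interval lay above 1 for 8 of the 63 (12.7%) and below 1 for 8 (12.7%), against 33.3% and 10.2% of genes of that level. The one-sided intervals of the 28 genes of the mitosis set, 9 above 1 and none below, were thus not seen in this longer list. Psrc1, a spindle protein, had 1.28 FPKM in the library labelled KO, against 0.118 FPKM in WT, on at least 33 reads (labelled KO) and 4 reads (WT). Spc25, a kinetochore subunit, had 63.9 FPKM in labelled-KO islets and 184 FPKM in WT islets, and lies beside the β-cell gene G6pc2. Bub3, Pkmyt1, Racgap1 and Ckap5 were the most abundant of the rest, Racgap1 at 3.97 FPKM in labelled-KO islets and 4.72 FPKM in WT islets and Ckap5 at 2.99 FPKM in labelled-KO islets and 4.95 FPKM in WT islets, with Pkmyt1, the kinase that restrains Cdk1, at 5.74 FPKM in labelled-KO islets and 2.96 FPKM in WT islets and the checkpoint gene Bub3 at 19.0 FPKM in labelled-KO islets and 24.5 FPKM in WT islets. As many as 36 of the 63 genes were under 0.5 FPKM in the library labelled KO and 41 in WT.

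The complex that ends mitosis and the complex that holds cell-cycle genes off were well represented. The anaphase-promoting complex list held 17 genes, among them its inhibitor Fbxo5 and the ubiquitin-conjugating enzyme Ube2s. All 17 were expressed and none was called. Of the 17, 13 were higher in FPKM (76.5%), against 58.2% of all listed genes. The interval lay above 1 for 11 (64.7%) and below 1 for 3 (17.6%), against 34.7% and 25.7% of all genes with recovered reads. The most abundant were Anapc5 at 137 FPKM in the library labelled KO, against 85.2 FPKM in WT, Anapc13 at 49.2 FPKM in labelled-KO islets and 24.1 FPKM in WT islets, Ube2s at 44.3 FPKM in labelled-KO islets and 39.6 FPKM in WT islets and Cdc16 at 29.1 FPKM in labelled-KO islets and 26.1 FPKM in WT islets. The last list held 15 genes of the DREAM complex, the pocket proteins and further E2F factors (E2f6, E2f7 and E2f8), and 13 were expressed. Of these 1 was called higher, Lin37, at 27.98 FPKM in labelled-KO islets and 11.8 FPKM in WT islets. Another 1 was called lower, Rbl2, the pocket protein p130, at 4.71 FPKM in labelled-KO islets and 12.1 FPKM in WT islets. Lin37 shares exon bases with Hspb6, Rbl2 with Aktip, Anapc13 with Cep63 and Pkmyt1 with Paqr4, each on the opposite strand. Of the 15 genes, 3 were higher in FPKM in the library labelled KO (20.0%), against 58.2% of all listed genes, and the interval lay below 1 for 10 (66.7%), against 25.7% of all genes with recovered reads. The most abundant others were Rbbp4 at 21.8 FPKM in labelled-KO islets and 33.4 FPKM in WT islets, E2f4, the E2F of resting cells, at 26.7 FPKM in labelled-KO islets and 28.1 FPKM in WT islets, Tfdp1 at 11.02 FPKM in labelled-KO islets and 12.8 FPKM in WT islets and Rb1, the retinoblastoma gene, at 7.29 FPKM in labelled-KO islets and 8.16 FPKM in WT islets. Genes that stay on in resting cells, such as E2f4 and Anapc5, were thus far above those that mark division, such as Cdk1 and Mki67, in both libraries.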

How the data were processed

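The authors deposited 1 table of FPKM values with 1 column per library. RNA was total RNA of cultured, hand-picked islets and the library kit was SMARTER, according to the protocols in the labels. The submitters' processing notes name mm10 (GRCm38). Aligner, counting tool, annotation and strand setting: not given in the sources used here. FPKM values were used as deposited.

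The values were searched for whole reads over lengths of 60 to 30000 bases, which gave totals of 14537660 (labelled KO) and 19097001 (WT). With these, 17178 of 17245 genes (99.6%) and all 58 members were whole reads, with a tolerance of 1e-05 read plus 1e-09 of the reads. The smallest such reads gave the Clopper-Pearson intervals (scipy 1.17.1). They summed to 91.3% of the total in the library labelled KO and 90.1% in WT. No molecular identifiers are named in the labels, so reads may include PCR copies and the intervals cover counting error only. The search and the 2-fold limit were tried on simulated data without PCR copies. The coverage of the intervals was checked there with the simulated reads, not with the smallest fitting reads. With 1 library per genotype no count test was run.

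Differences used a pseudocount of 1 FPKM, a floor of 1 FPKM in either library and a 2-fold limit. All 58 members could be named. The rule gave ratios for called members, the 2 widest in each direction of a role, and Mki67, Top2a and Pcna; ratios of other members, and of Top1 and Rpa1, were added after their values were seen. Of the wider lists, those called and the 4 most abundant others were named. Marker lists are described by sums. The members and lists were chosen with earlier results of these data known. The range of 0.1 to 2 FPKM and the interval rule were chosen after seeing the data. Exon overlaps, transcript length and GC content came from GENCODE M21, and promoters from RefSeq on GRCm38.p6. The printed promoters were chosen after their motifs were seen.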

Additional observations from a re-analysis of the deposited data

How the results depend on the processing

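No paired analysis was possible because each genotype has 1 library, and for the same reason no library could be left out. The 2 calls among members became 0 with a pseudocount of 5 FPKM, with each library scaled to a sum of 1000000, with median-ratio scaling and with equal sums without the 20 highest genes, 1 with the GC and length trend removed, and 6 with a pseudocount of 0.1 FPKM. The share of all expressed genes called in either direction moved too, from 10.9% to 18.3% and 3.91% with pseudocounts of 0.1 and 5 FPKM. It was 10.3% to 11.5% under the 3 scalings and 6.13% with the trend removed. With the trend removed 1 member, E2f1, was called lower, against 0 under the other pseudocounts, floors and scalings. By the counting interval 17 members were higher and 8 lower. The log2 ratio of Rfc2 was between 0.89 and 0.95, and that of Orc6 between 0.88 and 0.94, under the 3 scalings. The median log2 ratio of the expressed replication genes was -0.07. It was 0.13 with a floor of 5 FPKM (6 genes), -0.19 at a sum of 1000000 and -0.17 with equal sums. The median of all expressed genes was 0.08, and -0.04 and -0.06 under those 2 scalings. That of the expressed mitosis genes was 0.42. It was 0.75 and 0.16 with pseudocounts of 0.1 and 5 FPKM, 0.27 without a floor and 0.59 with a floor of 5 FPKM (3 genes). Only members high in either library pass a floor, so these medians describe those genes alone. With a limit of 5 FPKM, 7 members passed in the library labelled KO and 8 in WT. Without the 3 highest genes the mitosis set summed to 22.4 FPKM in the library labelled KO, against 14.3 FPKM in WT. Under the 3 scalings 20 or 21 of 28 mitosis genes and 11 to 13 of 30 replication genes were above WT. Of all genes with a mean of 0.1 to 2 FPKM, 65.5% to 67.6% were above WT under these scalings, and 70.4% as deposited. The causes were not tested. By the smallest fitting reads, which for some are a divisor of the true number, 25 members had under 50 reads in both libraries.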
